A study of Mus musculus with 10 samples.

Results

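Immediate early genes are switched on within minutes of a stimulus, without new protein synthesis, and their transcripts decay quickly. The 10 described here are Fos, Fosb, Jun, Junb, Jund, Egr1, Egr2, Nr4a1, Ier2 and Atf3. They were taken as every probe set of the array whose only gene symbol was one of these names, which gave 15 probe sets of 12488. Of the 15, 12 passed the filter on dim probe sets and were tested. One probe set each of Fos (161716_at), Junb (102362_i_at) and Atf3 (161645_r_at) did not.

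The series profiled whole brain of newborn mice (P0) on 10 arrays. XmO females (39,Xm, arrays 1, 2 and 7) carry a single maternal X, and they and the XX_Paf females (40,XX, arrays 1, 2 and 3) come from the cross written C57BL/6J x C3H/Paf. XpO females (39,Xp, arrays 15 and 18) carry a single paternal X, and they and the XX_InX females (40,XX, arrays 1 and 19) come from the cross written In(X)/C3H x C57BL/6J. All 4 groups share the age, the tissue and a C57BL/6J and C3H parentage, so XmO against XpO also differs in the cross. The labels do not say which parent is written first, whether an array is 1 animal or a pool, from which litters the animals came, or how and when after birth the brains were taken. The p-values therefore measure only the spread between these arrays, which may be technical.

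In the brain these genes are best known as markers of neuronal firing, and in other tissues and in dissected brain they also respond to growth factors, injury and stress. Calcium entry and kinase cascades activate the factors CREB and SRF with its partners, which bind the promoters of Fos, Egr1 and their relatives. Fos and Fosb proteins pair with Jun proteins to form AP-1, Egr1 and Egr2 are zinc finger factors, Nr4a1 is an orphan nuclear receptor, Ier2 is a small nuclear protein, and Atf3 is a stress-induced member of the CREB/ATF family. Jund differs from the others in being made in most cells without a stimulus.

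The promoters of Fos, the best studied of the genes, and of Nr4a1, the gene with the smallest p among the members, are shown. Marked are some of the sites through which such genes are known to be activated. Both promoters are the 250 bases upstream of an annotated start, from RefSeq on GRCm38.p6, on the plus strand. Fos is at chr12:85473640-85473889 and Nr4a1 at chr15:101266596-101266845. The Nr4a1 window lies inside the annotated span of the gene, 101253902 to 101274795, and so precedes an internal start. Capitals mark matches to TGACG on either strand (a short form of the cAMP response element, bound by CREB), to GCGNGGGCG on either strand (bound by Egr factors) and to TATAAA on the forward strand.
Fos: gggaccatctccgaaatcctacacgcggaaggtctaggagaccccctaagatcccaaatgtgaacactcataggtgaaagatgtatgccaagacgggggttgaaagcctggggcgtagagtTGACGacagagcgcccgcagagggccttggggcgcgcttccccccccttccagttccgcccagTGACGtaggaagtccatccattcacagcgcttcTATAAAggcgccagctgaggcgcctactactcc
Nr4a1: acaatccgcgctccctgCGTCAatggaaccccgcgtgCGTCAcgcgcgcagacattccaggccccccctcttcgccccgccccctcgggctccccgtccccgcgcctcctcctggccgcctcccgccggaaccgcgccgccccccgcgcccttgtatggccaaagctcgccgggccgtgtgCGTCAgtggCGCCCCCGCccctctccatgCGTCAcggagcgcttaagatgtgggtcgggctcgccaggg
The Fos promoter held TGACG at positions -129 and -66 and TATAAA at -33, counted from the start. The Nr4a1 promoter held TGACG on the reverse strand 4 times, at -233, -213, -69 and -40, and 1 Egr match at -60. Across 32851 promoters of RefSeq, in the same 250 bases upstream, TGACG was found in 17.77%, the Egr motif in 4.7% and TATAAA in 7.59%. The full element TGACGTCA was in 1.55% and the AP-1 motif TGANTCA in 6.75%, and neither was found in any member promoter examined. Of the other members, Fosb held 1 TGACG and 1 Egr match, Junb and Atf3 held 1 TGACG each, and the windows of Jun and Jund held none of these letters. Egr2 has 5 annotated starts. The windows of 3 of them overlap and share the same pair of TGACG matches and the same CArG box, the site bound by SRF, which 1.47% of promoters held. A further window held another CArG box and no TGACG, and the remaining window held none of these motifs. Neither the Fos nor the Nr4a1 window held a CArG box, and sites further upstream than 250 bases were not examined. These matches are letters in a window and say nothing of binding in these brains.

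Values are linear intensities that had been scaled before deposit. The trimmed mean was 499.9 on each of the 10 arrays. As a background, the brightest of the 9 probe sets for Y-linked genes, which females lack, was taken on each array, and it lay between 33.6 and 136.6. The ratios of 3' to 5' control probe sets, a measure of RNA integrity, ranged from 0.701 to 0.817 for Gapdh and from 1.022 to 1.163 for Actb. Neuronal markers were bright on all arrays, with Tubb3 between 22312.8 and 28697.1 and Dcx between 6841.8 and 8462.5, as the tissue label implies. In whole brain, fewer cells of a type and less RNA per cell cannot be told apart. Brightness was compared only within a probe set.

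Fos, whose protein is the partner of Jun in the classical AP-1 dimer, was measured by 160901_at (chr12, 85473890 to 85477274). It read 130.1, 143.8 and 161.3 in XmO, 199.8, 139.6 and 149.3 in XX_Paf, 105.5 and 183.0 in XpO, and 151.4 and 143.8 in XX_InX. All 10 values were above the background of their array, the highest was XX_Paf 1 and the lowest XpO 15, and the groups of each compared pair overlapped. The 2 XpO arrays bracketed both XX_InX arrays. Averaged over both crosses, the log2 fold change of XO against XX was -0.12 (SE 0.21, 95% interval -0.58 to 0.34, limma adjusted p = 1). Within the crosses it was -0.15 (SE 0.27) for XmO against XX_Paf and -0.09 (SE 0.33) for XpO against XX_InX. Without XpO 15 the last value was 0.31 and that of XO against XX was 0.08. The second Fos probe set, 161716_at, was below background on 6 arrays, among them all XX_Paf and XX_InX arrays, and was not tested.

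Fosb, a Fos relative whose truncated form accumulates in neurons after repeated stimulation, varied more between arrays of one group, for its level, than any other member (103990_at, chr7, 19302696 to 19310118). It read 118.9, 468.0 and 399.2 in XmO, 248.5, 267.2 and 401.4 in XX_Paf, 222.7 and 675.7 in XpO, and 512.0 and 427.6 in XX_InX. XmO 1 was the lowest and XpO 18 the highest array, a 5.68-fold range, and XpO 15 stood far below XpO 18. The pooled SD within groups was 0.81 on the log2 scale, against a median of 0.23 for the 500 probe sets nearest to it in mean level. For Fos the same SD was 0.29, against 0.34 for its neighbours in level. The log2 fold change was -0.18 (SE 0.38) for XO against XX, -0.09 (SE 0.48) for XmO against XX_Paf and -0.27 (SE 0.59) for XpO against XX_InX, with limma adjusted p between 0.98 and 1. Without XpO 15 the last of these was 0.53, and without XmO 1 the value of XmO against XX_Paf was 0.53. All XX_Paf arrays lay below both XX_InX arrays, at a difference of -0.65 on the log2 scale (SE 0.53, adjusted p = 0.6).

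**Figure D1:**
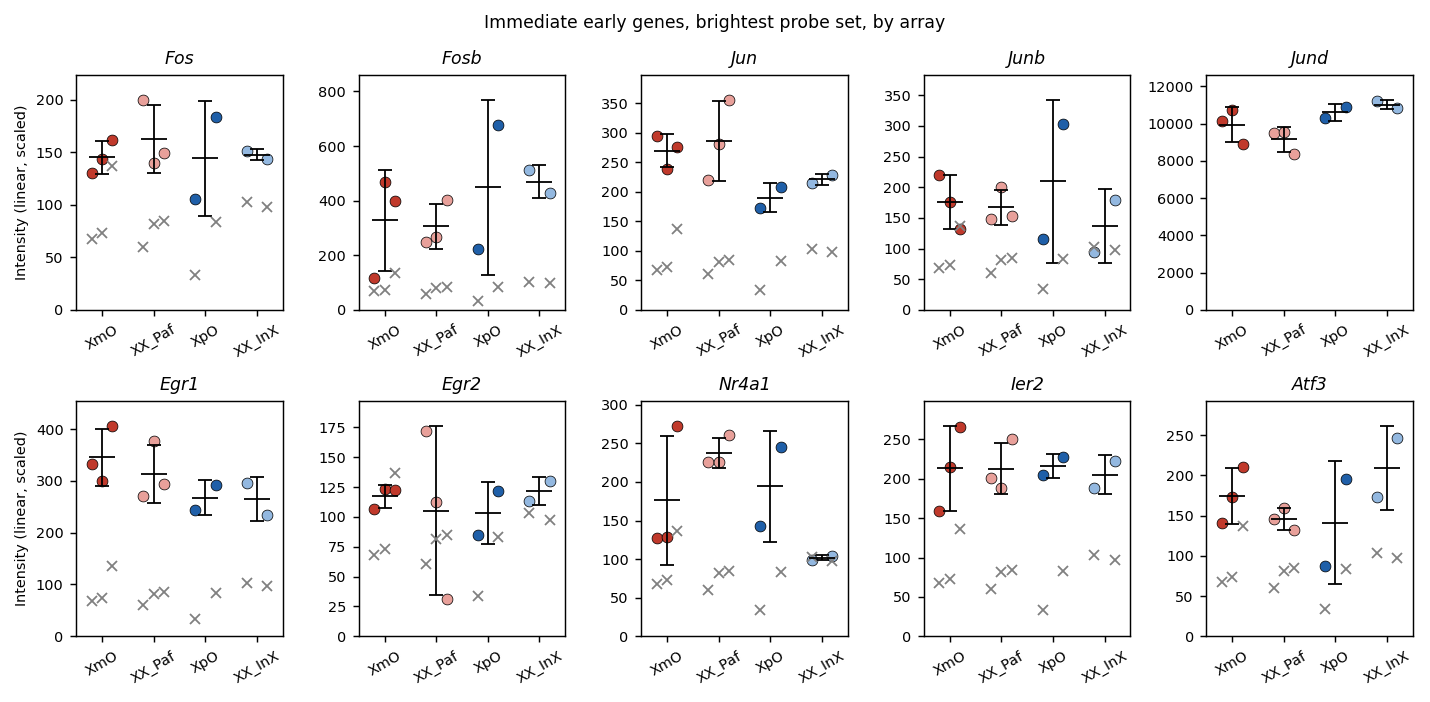
Intensity (linear, scaled before deposit) of the brightest probe set of each of the 10 genes, with 1 point per array, horizontal lines at the group mean and bars of 1 SD (n = 3 for XmO and XX_Paf, n = 2 for XpO and XX_InX), and grey crosses at each array's background. The Jund panel has no crosses. Each panel has its own axis from 0. For Nr4a1 the 3 XX_Paf arrays sit between 225.7 and 260.3, and both XX_InX arrays sit near their crosses at 99.5 and 104.3.

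The Jun family supplies the other side of AP-1. Jun itself (100130_at, chr4, 95049036 to 95052222) read 293.9, 238.7 and 274.9 in XmO, 219.9, 280.7 and 355.6 in XX_Paf, 172.2 and 207.4 in XpO, and 214.6 and 227.9 in XX_InX. Both XpO arrays lay below every other array, so XpO overlapped neither XmO nor XX_InX. Jun was 0.50 higher in XmO than in XpO on the log2 scale (SE 0.23, interval 0.00 to 1.01, 1.42-fold), with a limma adjusted p of 0.969, so it did not pass the test. The corresponding values were -0.06 (SE 0.21) for XmO against XX_Paf and -0.23 (SE 0.25) for XpO against XX_InX.

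Junb, an AP-1 member that often restrains Jun, was read by 102363_r_at (chr8, 84976909 to 84978748). It had 220.0, 176.5 and 131.4 in XmO, 147.8, 200.4 and 153.4 in XX_Paf, 116.0 and 303.7 in XpO, and 94.8 and 179.7 in XX_InX. XmO 7 and XX_InX 1 were below their background, and the 2 XpO arrays were again far apart. The other Junb probe set, 102362_i_at, stayed between 10.4 and 34.5, below background on all 10 arrays.

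Jund, the constitutive member (102364_at, chr8, 70697739 to 70700616), was the steadiest. It read 10164.5, 10748.6 and 8919.4 in XmO, 9522.8, 9567.6 and 8386.3 in XX_Paf, 10278.3 and 10921.5 in XpO, and 11208.2 and 10845.5 in XX_InX, a 1.34-fold range. All 3 XX_Paf arrays lay below both XX_InX arrays. The log2 difference of XX_Paf against XX_InX was -0.27 (SE 0.11, interval -0.50 to -0.04), with a limma adjusted p of 0.301. For XO against XX it was 0.03 (SE 0.08, interval -0.13 to 0.19), the narrowest interval among the members.

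Egr1, a zinc finger factor that follows synaptic activity, was read by 98579_at. Its values were 332.4, 298.8 and 405.8 in XmO, 269.9, 376.0 and 293.8 in XX_Paf, 243.5 and 292.1 in XpO, and 295.2 and 234.4 in XX_InX. All XmO arrays were above both XpO arrays, by 0.36 on the log2 scale (SE 0.22, limma adjusted p = 0.969), while XmO and XX_Paf overlapped. The second Egr1 probe set, 161802_i_at, was below background on 5 arrays and ordered the arrays otherwise. XmO 1 was lowest on it at 13.0 but above the mean of the arrays on 98579_at, and XX_InX 1 was highest on it at 172.7 but in the middle of the arrays on 98579_at.

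Egr2, which besides its immediate early response directs hindbrain patterning and myelination by Schwann cells, was read by 102661_at (chr10, 67534469 to 67542188). It had 106.3, 123.5 and 122.5 in XmO, 172.0, 112.8 and 31.1 in XX_Paf, 85.2 and 121.9 in XpO, and 113.5 and 130.2 in XX_InX. The highest and the lowest array both belonged to XX_Paf, and XmO 7 and XX_Paf 3 were below background. The log2 fold change of XmO against XX_Paf was 0.47 (SE 0.50), with a limma adjusted p of 0.918, and without XX_Paf 3 it was -0.25.

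Nr4a1, the nuclear receptor also called Nur77 (102371_at, chr15, 101253902 to 101274795), gave the largest difference of any member in relation to its error. It read 127.7, 128.7 and 272.4 in XmO, 226.4, 225.7 and 260.3 in XX_Paf, 143.4 and 244.8 in XpO, and 99.5 and 104.3 in XX_InX. The XX_InX arrays were the lowest of the 10, and XX_InX 1 was below its background of 102.9 while XX_InX 19 was just above its background of 97.5. Nr4a1 averaged 237.5 ± 19.8 in XX_Paf (SD, n = 3) and 101.9 ± 3.4 in XX_InX (SD, n = 2), without overlap.

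The log2 difference of XX_Paf against XX_InX for Nr4a1 was 1.22 (SE 0.35, interval 0.47 to 1.97, 2.33-fold), with a limma adjusted p of 0.186, so it was not called. XpO exceeded XX_InX by 0.88 (SE 0.38, interval 0.06 to 1.70, limma adjusted p = 1). Without XpO 18 this value was 0.49 and without XpO 15 it was 1.26. XmO against XX_Paf ran the other way, at -0.52 (SE 0.31, adjusted p = 0.887), with XmO 7 above the XX_Paf arrays and XmO 1 and 2 below them. Without XmO 7 it was -0.89. Tested directly, the XO effect in the first cross minus that in the second was -1.40 (SE 0.49, interval -2.46 to -0.34, limma adjusted p = 0.832). Nr4a2, the related receptor of dopamine neurons, did not share the pattern in these values. It read 287.0, 369.2 and 260.5 in XX_Paf and 377.4 and 244.8 in XX_InX, a log2 difference of -0.01 (SE 0.24).

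The globin genes Hba-a1 and Hbb-b2 also separated XX_Paf from XX_InX, and XmO from XpO. The red cell markers Alas2 and Slc4a1 overlapped in both comparisons. Over all probe sets, the groups did not overlap for 37.1% in XX_Paf against XX_InX and 17.4% in XmO against XpO. The summed intensity of 4 markers, all 4 of which were tested and of which the globins give nearly all the signal, was 11284.2 to 17287.9 in XmO, 11688.6 to 16970.9 in XX_Paf, 5951.9 to 7455.4 in XpO and 4015.5 to 6178.0 in XX_InX. Hba-a1, an alpha globin gene, was 1.58 higher in XX_Paf than in XX_InX on the log2 scale (SE 0.22, limma adjusted p = 0.0211), and was the one gene of any list examined to be called. The part of blood in the Nr4a1 difference, and in the higher Jun of XmO against XpO, was not tested. Within the In(X) cross the sums of XpO and XX_InX overlapped, as did Hbb-b2, Alas2 and Slc4a1. Hbb-b2 read 1109.3 and 1058.3 in XpO and 1392.9 and 930.8 in XX_InX. Hba-a1, like Nr4a1, did not overlap, which held for 23.4% of all probe sets. Hba-a1 read 6112.9 and 4541.0 in XpO and 4474.8 and 2872.9 in XX_InX, a log2 difference of 0.56 (SE 0.24, limma adjusted p = 1).

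Ier2, a rapid growth factor response gene (99109_at, chr8, 84661331 to 84662852), read 158.8, 214.5 and 266.4 in XmO, 200.7, 188.2 and 250.2 in XX_Paf, 205.3 and 227.2 in XpO, and 188.1 and 222.6 in XX_InX. The groups overlapped in each compared pair, and the 4 group means lay between 205.3 and 216.2. The log2 fold change of XO against XX was 0.03 (SE 0.18, interval -0.36 to 0.42).

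Atf3, induced by cellular stress and nerve injury, was read by 104155_f_at (chr1, 191170296 to 191183333). It had 140.6, 172.4 and 210.3 in XmO, 145.9, 158.9 and 132.2 in XX_Paf, 87.0 and 195.2 in XpO, and 172.4 and 245.9 in XX_InX. All XX_Paf arrays lay below both XX_InX arrays, at a log2 difference of -0.50 (SE 0.34, limma adjusted p = 0.522). XpO 15 was the lowest array. A second tested probe set, 104156_r_at, disagreed with the first at the extremes. XX_InX 19 was highest on 104155_f_at and lowest on 104156_r_at, at 36.4. The third, 161645_r_at, was between 7.4 and 13.4 and below background on all arrays.

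Across arrays, some were low and others high for most of these genes at once. With each gene by its brightest probe set, XpO 15 was among the 3 lowest of 10 arrays for 7 genes and above the gene's mean for only 1, Jund. Its median deviation from the gene means was -0.40 on the log2 scale. XpO 18, from the same group, was among the 3 highest for 7 genes, with a median deviation of 0.26. XmO 7 was above the mean for 8 genes and the highest array for 3 (Egr1, Nr4a1 and Ier2), with a median deviation of 0.24. The other 7 arrays had medians between -0.11 and 0.10. Among them, XmO 1 was in the 3 lowest for 6 genes and in the 3 highest for 3, with a mean deviation of -0.18. Over the 9 genes without Jund its median deviation was -0.19.

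These shifts were larger than the general level of the arrays, but a median of 9 genes scatters more than that of 3985 probe sets. The comparison therefore does not show whether such a shift is particular to these genes. For the 9 genes without Jund the median deviation was -0.49 on XpO 15, 0.28 on XpO 18 and 0.24 on XmO 7. Over 3985 other tested probe sets with mean intensity between 100 and 450, the medians on the same arrays were -0.03, 0.09 and 0.03, the lowest and the highest of them being those of XpO 15 and XpO 18. After quantile normalization, an alternative chosen after seeing the data, the 10-gene medians were -0.32 on XpO 15, 0.18 on XpO 18 and 0.22 on XmO 7. XpO 15 also had the lowest background, 33.6, and XmO 7 the highest, 136.6, and the part of background in these shifts was not tested. The 3' to 5' ratios of Gapdh were 0.715 on XpO 15, 0.722 on XpO 18 and 0.748 on XmO 7, inside the range of the others. Those of Actb were 1.075, 1.095 and 1.163 on the same arrays, the last being the highest of the 10, and the part of RNA integrity in these shifts was not tested. Since the arrays were singled out by these values, no test is given.

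**Figure D2:**
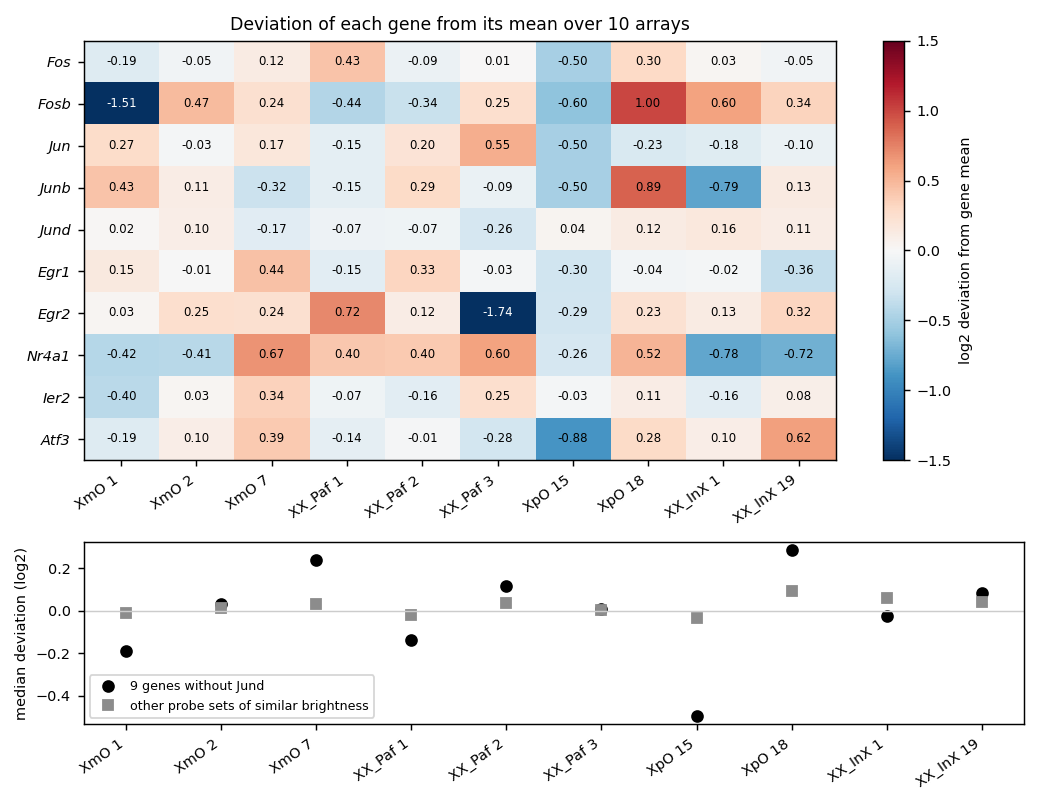
Upper panel: log2 deviation of each of the 10 genes (brightest probe set) from its mean over the 10 arrays, red for higher and blue for lower, with the colour scale limited to 1.5 in each direction. Lower panel: the median deviation on each array for the 9 genes without Jund (black circles) and for 3985 other probe sets of similar brightness (grey squares). XpO 15 reaches -0.49 for the 9 genes and -0.03 for the other probe sets.

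The level of spread was not shared by all members. The pooled SD within groups (log2) was largest for the dim 161802_i_at of Egr1 at 1.03, 104156_r_at of Atf3 at 0.85, Fosb at 0.81 and Egr2 at 0.76, followed by Junb at 0.55, Nr4a1 at 0.43 and 104155_f_at of Atf3 at 0.41. The medians of the 500 probe sets nearest in level were 0.55, 0.42, 0.23, 0.42, 0.33, 0.32 and 0.33 in the same order. Fos at 0.29, Ier2 at 0.26, Jun at 0.23, 98579_at of Egr1 at 0.23 and Jund at 0.10 were below the medians of their neighbours.

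**Figure D3:**
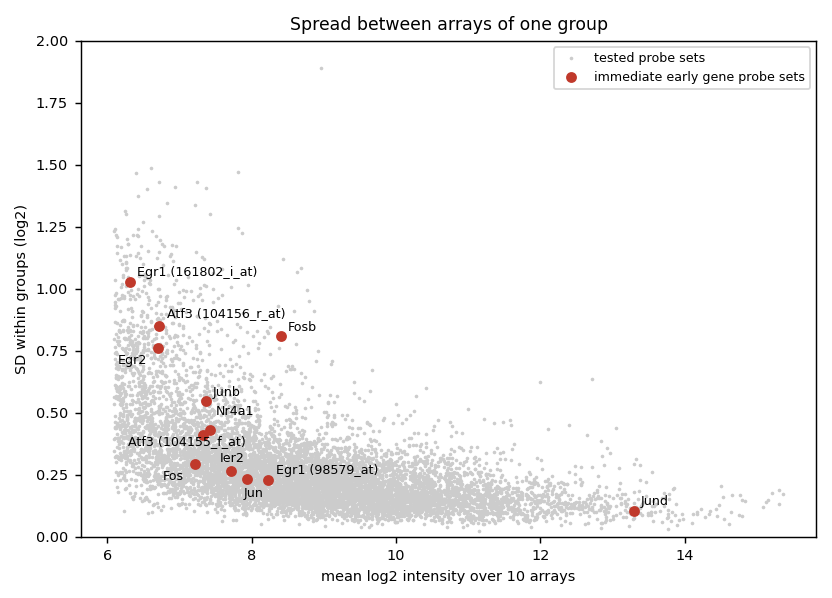
Pooled SD within groups (log2) against the mean log2 intensity over 10 arrays, for the 8695 tested probe sets (grey) and the 12 tested probe sets of the immediate early genes (red, with the probe set named where a gene has more than 1). Fosb, at an SD of 0.81, stands above most probe sets of its level.

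Loss of 1 X chromosome left no called change in these genes. Of the 12 tested probe sets, 0 were called by limma at an adjusted p under 0.05 in XO against XX, and 0 had an unadjusted p under 0.05. Over all 8695 tested probe sets 0.0115% were called in that comparison, and 2.6% had an unadjusted p under 0.05. The split of the 12 was 6 higher and 6 lower in XO, with a median log2 fold change of 0.01 beside 0.00 for all tested probe sets.

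Within the crosses the count was again 0 of 12. In XmO against XX_Paf, 0.023% of all probe sets were called. Of the 12, 0 had an unadjusted p under 0.05, beside 5.53% of all. The 12 split into 5 higher and 7 lower. None of them separated the groups, against 13.9% of all tested probe sets whose groups did not overlap. The untested, dim 161716_at of Fos and 161645_r_at of Atf3 did not overlap, both higher in XmO. In XpO against XX_InX, 0.0115% were called and 1 member, Nr4a1, had an unadjusted p under 0.05, beside 3.38% of all. Here 5 were higher and 7 lower, and 2 of 12 did not overlap, Nr4a1 higher and Jun lower in XpO, beside 23.4% of all probe sets.

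Parental origin of the single X also gave no call. In XmO against XpO, 0 of 12 were called beside 0.0115% of all, and 6 were higher and 6 lower. Jun alone had an unadjusted p under 0.05, beside 4.83% of all. Jun and Egr1 (98579_at) did not overlap, 2 of 12 beside 17.4% of all. The difference of the XO effect between crosses gave 0 of 12 beside 0.023% of all. Nr4a1 alone was under 0.05 unadjusted, beside 5.91% of all.

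The XX females of the 2 crosses differed most. XX_Paf against XX_InX had 0.0805% of all probe sets called and 13.8% at an unadjusted p under 0.05. Of the members 0 of 12 were called, and 2, Nr4a1 and Jund, were under 0.05 unadjusted. The groups did not overlap for 5 of 12, Nr4a1 higher and Fosb, Jund, Egr1 (161802_i_at) and Atf3 (104155_f_at) lower in XX_Paf, beside 37.1% of all probe sets. A share of that size is near the background of this comparison.

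**Figure D4:**
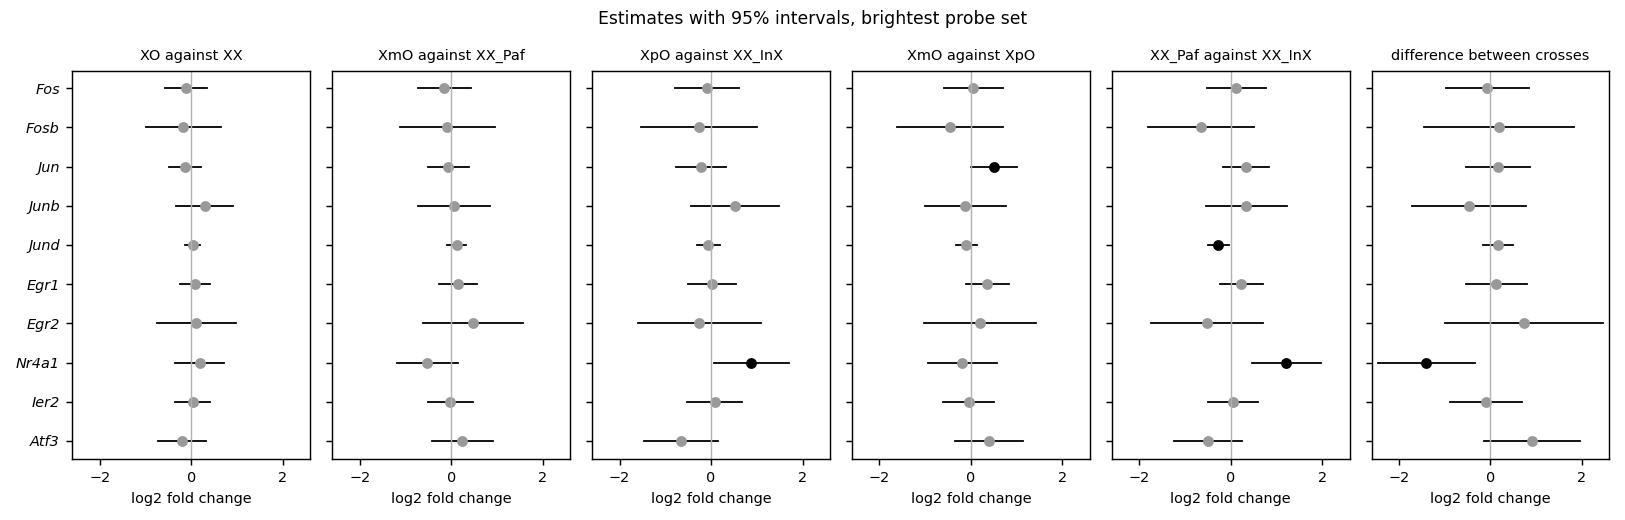
Log2 differences of the 10 genes (brightest probe set) with 95% intervals from limma, in 1 panel per comparison. Black points have an unadjusted p under 0.05. Nearly all intervals cross 0, and those that do not are Nr4a1 in XpO against XX_InX, in the difference between crosses and in XX_Paf against XX_InX, Jun in XmO against XpO, and Jund in XX_Paf against XX_InX, none called after adjustment.

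Other genes of the response were likewise not called. Of 35 further immediate early genes on the array, 30 were tested and 0 were called by limma in any of the 6 comparisons. At an unadjusted p under 0.05 there were 2 in XO against XX, 1 in XmO against XX_Paf, 2 in XpO against XX_InX, 1 in XmO against XpO, 2 in the difference between crosses and 5 in XX_Paf against XX_InX. Over all tested probe sets the shares at an unadjusted p under 0.05 were 2.6%, 5.53%, 3.38%, 4.83%, 5.91% and 13.8% in the same order. The median log2 difference of the 30 genes lay between -0.05 and 0.13.

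Gadd45b and Gadd45g, stress genes that act in growth arrest and DNA demethylation, gave the smallest p values of the list in 3 of these comparisons. Gadd45b read 105.5, 62.3 and 47.0 in XmO and 136.1 and 203.6 in XpO, a log2 difference of -1.30 (SE 0.46, limma adjusted p = 0.798). Gadd45g read 254.9, 159.2 and 200.6 in XmO and 334.5, 286.4 and 371.6 in XX_Paf, a log2 difference of -0.71 (SE 0.26, adjusted p = 0.877). Neither pair of groups overlapped, which held for 17.4% of all probe sets in XmO against XpO and 13.9% in XmO against XX_Paf. Neither gene was called. On XmO 2 and XmO 7 Gadd45b was below the background of the array. Dusp2, a phosphatase that switches off the MAP kinases, read 586.5 and 813.7 in XpO and 448.3 and 438.2 in XX_InX, at 0.64 (SE 0.22, adjusted p = 1). Sgk1, a kinase induced by serum and glucocorticoids, read 963.7, 807.9 and 730.2 in XX_Paf and 496.4 and 630.0 in XX_InX, at 0.57 (SE 0.19, adjusted p = 0.24).

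The genes that act upstream and beside the members were also not called. Of 19 tested kinases and transcription factors that induce them, and of 15 tested repressors and dimer partners, 0 were called in each comparison. At an unadjusted p under 0.05 there were at most 2 in any comparison from either list. Ddit3, a stress factor that pairs with C/EBP and ATF proteins, had the smallest p of the partners in XmO against XX_Paf, at 1.44 on the log2 scale (SE 0.46, adjusted p = 0.877). It read 165.0, 111.3 and 82.8 in XmO and 41.4, 53.9 and 34.1 in XX_Paf. All 3 XX_Paf arrays, and XmO 7, were below the background of their array. Nab1, which represses Egr proteins, was at -0.47 in XX_Paf against XX_InX (SE 0.19, adjusted p = 0.304).

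Genes that respond to stress hormones, low oxygen or heat, which birth and handling can alter, held no called gene either. These were 13 tested genes induced by glucocorticoids, 15 by low oxygen and 10 of the heat shock response, with 0 called in each of the 6 comparisons by limma and at most 3 at an unadjusted p under 0.05. Linear sums follow the brightest genes of a list. In the glucocorticoid list Mt2 was the brightest, at 4734.6 on XmO 7 and at most 3370.6 on the other arrays. The list summed to 9061.6 on XpO 15, 10296.7 on XpO 18 and 13118.0 on XmO 7, the highest of the 10 arrays. The heat shock list summed to 33119.1, 30457.7 and 33167.0 on the same arrays, and the low oxygen list to 25300.6, 20194.9 and 23635.1, with XpO 18 the lowest array. The further immediate early genes summed to 24153.5 on XpO 15, the lowest array, 24543.8 on XpO 18 and 25399.7 on XmO 7. Plk2, Plk3 and Rhob weigh most in this sum. Plk3 read 4295.4 on XpO 15, its lowest array, while Rhob read 3616.9 there, its highest. The marker lists other than blood (neurons, radial glia and astrocytes, oligodendrocyte lineage, microglia, endothelium, meninges, muscle, choroid plexus and pituitary) also had 0 called genes, with at most 2 at an unadjusted p under 0.05 in a comparison. Muscle markers, of which 3 of 6 were tested, summed to 3394.7 on XX_Paf 2 and to between 478.6 and 1086.2 on the other arrays, and XX_Paf 2 was the highest or lowest array for none of the 10 genes.

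The probe sets whose log2 intensity followed Fos (160901_at) most closely over the 10 arrays were Zfyve16 (Pearson r 0.91), Cps1 (0.89), Rap2a (0.87), Rgs11 (0.87), Spata13 (0.86) and A2m (0.86). After subtracting group means they were H2-Q10 (0.97), Coq10a (0.96), Usp7 (0.96), Ptp4a3 (0.96), Serpina1e (0.95) and Tyrobp (0.95), the last a microglial marker. No gene stands in both lists, and none is one of the 35 further immediate early genes. The members were left out of this search. After subtracting group means, the r of the other members with Fos ran from -0.14 (Jun) to 0.72 (Atf3, 104155_f_at). The coefficients listed by gene are the highest among the 8695 tested probe sets, members left out, over 10 arrays that share their scaling. They are given as a description.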

How the data were processed

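RNA of whole newborn brain was measured on 10 arrays. The authors deposited 1 linear intensity per probe set and array. The algorithm that summarised the probes is not given in the sources used here, and the equal trimmed means show that the deposited intensities had been scaled. The groups follow the genotype and the cross that the labels give. Detection calls and scan dates were not used here, so batches could not be examined, and the number of arrays limits the precision.

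The 66 control probe sets were left out. Of the rest, 10833 had 1 gene symbol in the platform annotation, 396 had several and named no gene here, and 1193 had none. Intensities under the 10th percentile (15) were raised to it, taken to log2, and the 8695 probe sets with mean log2 value at or over the 30th percentile were tested. A model with 1 mean per group was fitted to all 10 arrays with limma 3.58.1 in R 4.3.3 (moderated with a trend on intensity, with 6 residual df), without a block. Tests were two-sided, with Benjamini-Hochberg adjustment over all tested probe sets within each comparison, and a call at an adjusted p under 0.05. XO against XX is the mean of the 2 within-cross contrasts. The script was tested on simulated data.

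Every probe set of the 10 genes is named. Of other lists, called genes and at most the 2 of smallest p per comparison are named, each gene by its brightest probe set. Also named are the 6 probe sets outside the members most like Fos by each measure. Nr4a2, Plk2, Rhob, Tubb3 and Dcx were added after their values were seen. The members and lists were chosen with earlier results of these data known. Promoter sequences and coordinates come from RefSeq (GRCm38.p6), with no promoter shown for Egr1 or Ier2. Alternatives were another floor, no floor with an offset of 16, other filters, quantile normalization, no intensity trend, a replicate block and leaving out each array. Text processing and plots used Python 3.11.15, pandas 2.3.3 and matplotlib 3.10.9.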

Additional observations from a re-analysis of the deposited data

How the results depend on the processing

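No member probe set was called by limma under any of 17 alternatives (1182 estimates, lowest adjusted p 0.114, for Nr4a1 in XX_Paf against XX_InX without XpO 15), and 91 estimates changed sign, 84 of them when an array was left out. None of the 5 estimates with an unadjusted p under 0.05 changed sign. With the filter at the 50th percentile only 5 member probe sets were tested. Leaving out 1 array moved the Fos log2 fold change between -0.32 and 0.08 for XO against XX, between -0.26 and 0.00 for XmO against XX_Paf and between -0.48 and 0.31 for XpO against XX_InX. For Fosb the ranges were -0.58 to 0.22, -0.46 to 0.53 and -1.07 to 0.53. The sign of both genes in the In(X) cross and in XO against XX turned positive without XpO 15 (for Fosb in XO against XX also without XmO 1), and Fosb within the Paf cross did so without XmO 1 or XX_Paf 3. Each of these changes came with leaving out 1 array, and why that array differs was not tested.

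Counts of all probe sets called moved as follows. With no filter they were 5 in XO against XX, 4 in XmO against XX_Paf, 7 in XpO against XX_InX, 3 in XmO against XpO, 5 in the difference between crosses and 17 in XX_Paf against XX_InX. With the filter at the 50th percentile the difference between crosses had 1. Without the intensity trend it had 0 (511 at an unadjusted p under 0.05) and XX_Paf against XX_InX had 2. When 1 array was left out the counts ranged from 1 to 3, 2 to 4, 1 to 4, 1 to 7, 0 to 4 and 2 to 17 in the order given for no filter. The replicate numbers 1 and 2 that XmO and XX_Paf share pair no animals in the labels, and the deviations of same-numbered arrays correlated at -0.01 and -0.04. With the number as a block, XmO against XpO had 2 calls, the difference between crosses 0 (430 at an unadjusted p under 0.05) and XX_Paf against XX_InX 2, and Nr4a1 in the last was at 1.65 with an adjusted p of 0.527. The causes of the changed counts were not tested. Signal near background limits Nr4a1 in XX_InX, Egr2, Junb and the second probe sets of Fos, Egr1 and Atf3.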
